A study of Mus musculus with 26 samples.

Results

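Immunoprecipitated (IP) RNA of the mouse retina was compared with retinal input RNA in 12 of the 26 libraries of the series, 6 IP and 6 input. Libraries were assigned to the groups by the day, fraction, tissue and replicate number in their labels. All 12 came from untreated mice at day 0, from retinas of freshly enucleated eyes, and all belonged to batch 2. In both groups poly(A) RNA was captured on oligo-dT beads and turned into cDNA libraries by a SMART-Seq HT kit for very small amounts of RNA. In the study the IP fraction stands for the RNA of astrocytes, the input fraction is its control, and the other 14 libraries are IP RNA of the optic nerve. The labels name neither the tag that was precipitated, nor the promoter that drives it, nor the strain or age of the mice. Whether the 6 libraries of a group are 6 animals is not stated, so a p-value here reflects variation among libraries, which may be partly technical.

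Retinal astrocytes are born outside the retina, enter through the optic nerve head and spread over the nerve fibre layer ahead of the growing vessels, which they guide. Müller glia, the other macroglia of the retina, are made within it, span its whole depth and share many genes with astrocytes. Messenger RNA that is pulled down with tagged ribosomes is cytoplasmic RNA under translation, and transcripts made inside mitochondria or kept in the nucleus are not bound by such ribosomes. Since the labels do not name the tag, that last point is background and not a statement on these samples.

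The deposited table held 54532 genes, and 15181 passed the filter on low counts and were tested. Libraries held 11164619 to 18417001 counts in input and 14703195 to 24966236 in IP. Levels are CPM, the usual library-scaled counts, with TMM size factors. Differences are log2 fold changes of IP over input from edgeR with their standard error (SE), and their median over all 15181 genes was 0.017. In bulk RNA, fewer cells of a type and less RNA per cell cannot be told apart.

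The libraries were uneven within both groups. The SD of log2 CPM between libraries of a group had a median over genes of 0.82 in input and 0.51 in IP, against 0.34 in 6 optic nerve head IP libraries and 0.30 in 6 nerve proper IP libraries of batch 1. Input replicates 1 and 2 stood apart from the other inputs. Their Spearman correlations across genes with inputs 3 to 6 were 0.752 to 0.838, and those of inputs 3 to 6 with each other 0.950 to 0.975. IP replicates 1, 5 and 6 were close to these 4 inputs, with correlations of 0.943 to 0.971, 0.951 to 0.973 and 0.947 to 0.965. IP replicates 2, 3 and 4 were farther from them, with 0.879 to 0.905, 0.861 to 0.878 and 0.845 to 0.869. Library weights estimated by limma were 0.144 and 0.124 for inputs 1 and 2, 0.577, 0.322 and 0.355 for IP 2, 3 and 4, and 1.70 to 4.88 for the other 7 libraries.

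**Figure D1:**
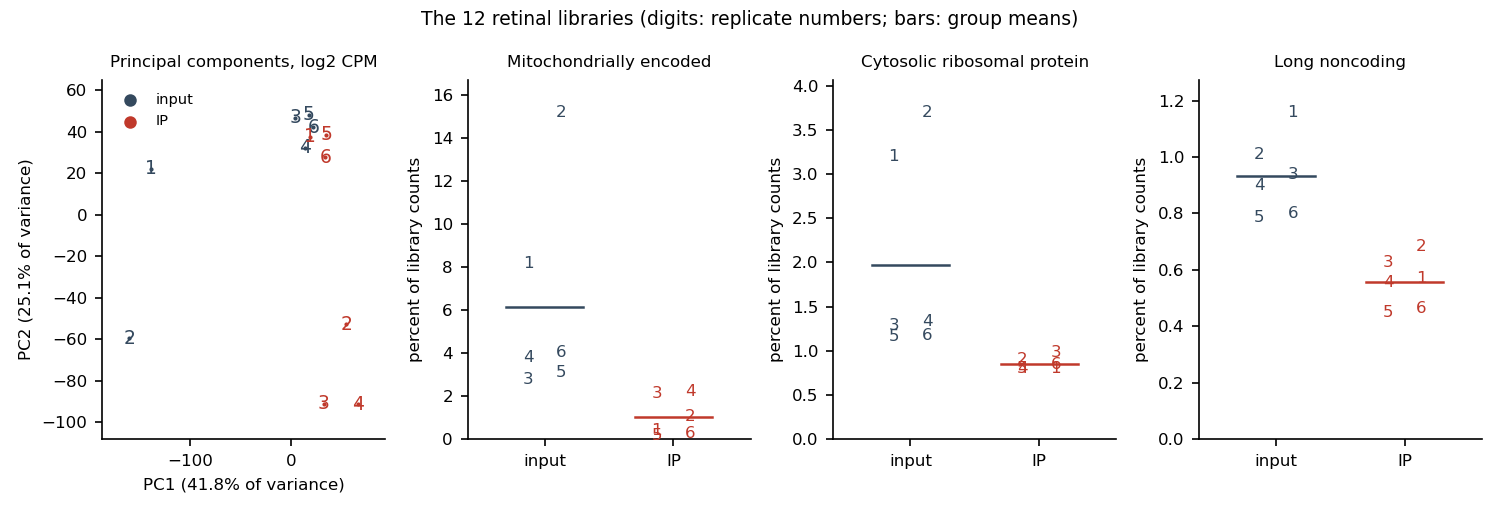
The 12 retinal libraries on the first 2 principal components of log2 CPM (left), and the percent of each library's counts on mitochondrially encoded, cytosolic ribosomal protein and long noncoding genes. Digits are replicate numbers, dark for input and red for IP, and bars are group means. Inputs 1 and 2 lie apart along the first component (41.8% of variance) and IP 2, 3 and 4 along the second (25.1%), while each of the 3 shares is lower in all 6 IP libraries than in all 6 inputs.

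Of 6 measures of whole libraries, 3 shares of counts did not overlap between the groups. Mitochondrially encoded transcripts took 0.384%, 1.03%, 2.11%, 2.23%, 0.155% and 0.259% of counts in IP 1 to 6, and 8.16%, 15.2%, 2.79%, 3.78%, 3.08% and 4.01% in inputs 1 to 6. All 6 IP values lay below all 6 inputs, and the means were 1.03% ± 0.937 and 6.17% ± 4.83 (SD, n = 6 each, exact two-sided permutation p = 0.00216, the smallest that 6 against 6 libraries allow, 0.00433 with Benjamini-Hochberg adjustment over 6 measures). Cytosolic ribosomal protein genes took 0.852% ± 0.0738 of counts in IP and 1.97% ± 1.15 in input, and long noncoding genes 0.558% ± 0.0907 and 0.931% ± 0.139 (exact permutation p = 0.00216 for each, SD, n = 6 per group). Both of these also did not overlap between the groups. The number of genes with at least 1 CPM was 13790 to 14383 in IP and 13307 to 14544 in input, with an exact permutation p of 0.887. The share of the 100 highest genes (exact permutation p = 0.829) and the number of genes with at least 1 count (exact permutation p = 0.507) likewise did not separate the groups.

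Gene by gene, edgeR's quasi-likelihood test called 0 of 15181 genes higher in IP (0.0%) and 0 lower (0.0%) at a Benjamini-Hochberg adjusted p under 0.05. The smallest adjusted p was 0.057, and at an unadjusted p under 0.05 there were 1771 genes higher and 1585 lower. DESeq2 called 969 genes higher (6.38%) and 1103 lower (7.27%). Limma-voom called 0 in either direction, and the same fit with library weights called 474 higher (3.12%) and 566 lower (3.73%). Leaving out 1 IP library changed the edgeR counts: without IP replicate 1 it called 341 genes higher and 40 lower, and without IP replicate 5 it called 226 higher and 20 lower.

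A count that no single distant library can create is that of genes whose 6 IP libraries all lie on one side of the 6 inputs. There were 330 genes with every IP library above every input (2.17% of those tested) and 318 with every IP library below (2.09%). With RLE size factors the numbers were 206 and 360, so the near-even split of 50.9% higher became 36.4%. The higher count was 571 without IP 1, 496 without input 2 and 581 without input 6. Against inputs 3 to 6 only, 791 genes lay above (5.21%) and 705 below (4.64%). Of the 330 higher genes, 322 were protein-coding, and their median coding length was 1602 bases. Of the 318 lower genes, 223 were protein-coding with a median coding length of 453 bases, 42 were pseudogenes and 53 were of other types. The median coding length over all genes tested was 1383 bases. DESeq2 called 254 of the 330 and 307 of the 318.

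A few libraries set the gap between the groups. Among the 330 higher genes the lowest IP library was IP 5 for 118 genes, IP 1 for 104 and IP 6 for 63, and it was IP 2, 3 or 4 for 19, 19 and 7. The highest input was input 6 for 134 of them and input 5 for 86. Among the 318 lower genes the highest IP library was IP 3 for 99 and IP 1 for 73, and the lowest input was input 5 for 91 and input 6 for 84. Inputs 1 and 2 thus set the gap for few of the lower genes, 9 and 10.

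**Figure D2:**
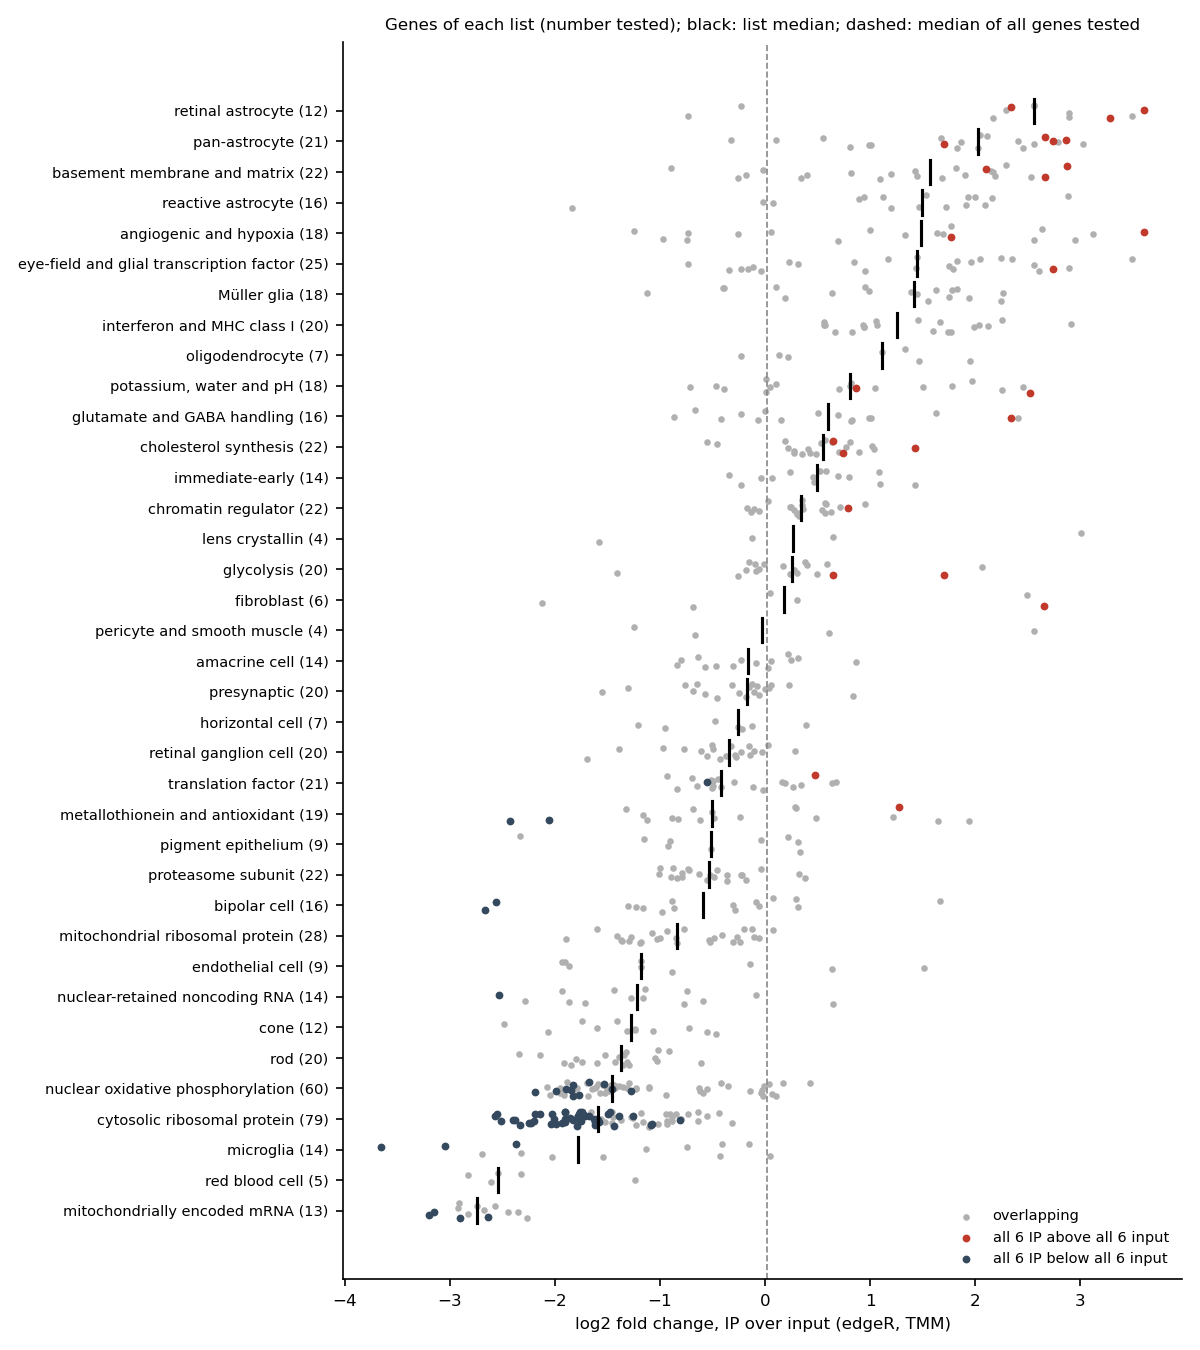
Log2 fold change of IP over input for the genes of 37 lists, one row per list with the number of genes tested. Grey points are genes whose groups overlap, red and dark points are genes with all 6 IP libraries above or below all 6 inputs, black bars are list medians and the dashed line is the median of all genes tested. Astrocyte lists lie at the top with medians of 2.56 and 2.03, and mitochondrially encoded mRNAs at the bottom with -2.74.

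Astrocyte genes averaged higher in IP. The counts of each list stand against 2.17% of all genes separated upwards and 2.09% downwards, and 6.38% called higher and 7.27% called lower by DESeq2. Of 21 tested genes that mark astrocytes across the nervous system, 20 had positive fold changes with a median of 2.03. In 4 of them (Mlc1, Sox9, Bcan and Aldoc) all IP libraries lay above all inputs, a share of 19.0% against 2.17% of all genes. DESeq2 called 15 higher and 0 lower, and edgeR called 0. Limma with library weights called 3 higher (3.12% of all genes) and 0 lower, and its median for the list was 0.995. The summed level of the list was 11229, 35369, 51924, 58599, 11952 and 16725 CPM in IP 1 to 6 and 5770, 12074, 5910, 7558, 8451 and 11265 CPM in inputs 1 to 6. IP 2, 3 and 4 were far above every input, whereas IP 1 and IP 5 lay beside input 2.

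Mlc1 (mm10 chr15:88955884-88979007), which encodes a membrane protein of astrocyte endfeet, stood at 604, 3337, 4438, 5563, 700 and 953 CPM in IP 1 to 6. Its inputs 1 to 6 stood at 117, 270, 302, 406, 463 and 590 CPM. The lowest IP library, IP 1, was thus barely above input 6, while IP 4 was several times higher than both (log2 fold change 2.86, SE 0.60, edgeR adjusted p = 0.057, DESeq2 adjusted p = 0.000144, n = 6 per group). Sox9, the transcription factor that specifies glia, had IP levels of 53.9 to 560 CPM and input levels of 12.1 to 49.9 CPM, with a log2 fold change of 2.74. Bcan, which encodes the matrix proteoglycan brevican, ranged from 43.9 to 371 CPM in IP and from 8.76 to 43.1 CPM in input. Aldoc, the aldolase of astrocytes, ranged from 5259 to 24535 CPM in IP and from 3131 to 4899 CPM in input (1.71, SE 0.42). With library weights the log2 fold changes were 1.19 for Mlc1, 0.995 for Sox9, 1.05 for Bcan and 0.876 for Aldoc. Among them the weighted limma fit called Aldoc alone (adjusted p = 0.0384).

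For the best known astrocyte markers the groups overlapped. Gfap, the intermediate filament of astrocytes, was at 375, 3093, 1740, 4280, 823 and 951 CPM in IP 1 to 6 and at 45.5, 69.9, 214, 326, 508 and 746 CPM in inputs 1 to 6. Only IP 1 fell within the range of the inputs, between inputs 4 and 5. Aldh1l1, a folate enzyme used to mark astrocytes, had a level of 15 CPM in IP 1 against 2.26 to 26.2 CPM in input, and up to 141 CPM in IP 4. S100b, a calcium-binding protein of glia, was at 187 to 1833 CPM in IP. Its input 2 held 806 CPM and its other inputs 105 to 235 CPM, so that against inputs 3 to 6 all IP libraries lay above. Aqp4, the water channel of astrocyte and Müller glia endfeet, was at 16.2 to 171 CPM in IP and 9.69 to 144 CPM in input with a log2 fold change of 0.10 (SE 0.67), and its sign turned under RLE size factors and DESeq2.

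The list chosen for astrocytes of the retina shares Gfap with the list above and was not compared with astrocytes of the brain. It had the highest edgeR median of the 37 lists, 2.56 over 12 tested genes. DESeq2 called 10 of them higher (6.38% of all genes) and 0 lower, and in 3 (Angpt4, Ackr2 and Slc6a11) the groups did not overlap (2.17% of all genes). Limma with library weights called 1 of the 12 higher (3.12% of all genes) and 0 lower. Its median for this list was 0.919, below those of the list above (0.995), interferon and MHC class I (0.956) and Müller glia (0.947). Angpt4 (mm10 chr2:151911210-151945337), an angiopoietin ligand of the vascular Tie receptor, had the largest fold change of the named genes. It stood at 109, 748, 602, 544, 55.8 and 65.5 CPM in IP 1 to 6 and at 16.1, 13.8, 22.6, 39.1, 33.7 and 49.2 CPM in inputs 1 to 6. IP 5 and IP 6 were close to input 6, and IP 2, 3 and 4 were far above it (log2 fold change 3.6, SE 0.68, edgeR adjusted p = 0.057, DESeq2 adjusted p = 9.21e-06). With library weights the log2 fold change of Angpt4 was 1.35 (weighted limma adjusted p = 0.102). Ackr2, a scavenging chemokine receptor, was at 12.9 to 205 CPM in IP and 0.161 to 12.6 CPM in input. Slc6a11, a GABA transporter of astrocytes, was at 128 to 896 CPM in IP and 26.3 to 120 CPM in input.

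Pax8, a paired-box transcription factor, missed the count of separated genes through 1 library. IP 1 held 31.3 CPM, within the 7.10 to 35.0 CPM of the inputs, IP 5 and 6 held 44.0 and 43.6 CPM, and IP 2, 3 and 4 held 279, 344 and 429 CPM. Pax2, the optic stalk factor of the astrocyte lineage, was low throughout, with 0.554 to 13.9 CPM in IP and 0 to 0.876 CPM in input. Its groups overlapped through IP 1 as well. Pdgfra, the receptor by which retinal neurons recruit astrocytes, was at 157 to 1595 CPM in IP and 49.9 to 228 CPM in input.

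The 250 bases before the start of Angpt4 are shown because it led the genes that were higher in IP, and because Sox9 stood among them. They lie at chr2:151910957-151911206 on the plus strand of GRCm38.p6 and were taken from RefSeq. Capitals mark 1 match to the Sox core (ACAAT, or ATTGT on the other strand).
Angpt4: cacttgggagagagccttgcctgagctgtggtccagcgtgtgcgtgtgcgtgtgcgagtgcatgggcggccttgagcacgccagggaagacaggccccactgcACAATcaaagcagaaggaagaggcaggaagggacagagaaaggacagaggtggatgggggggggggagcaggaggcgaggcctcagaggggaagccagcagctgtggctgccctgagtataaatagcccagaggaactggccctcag
The core occurred in 56 of the 252 separated higher genes with a promoter in the table, or 22.2%. It occurred in 21.2% of the 11062 tested genes with one and in 30.9% of all 27025 promoters of that length. The share among the separated higher genes was thus near that of all tested genes. A second motif searched in the same windows, the NFI half-site (TTGGC, or GCCAA on the other strand), occurred in 52.0% of the separated higher genes and 50.2% of tested genes. A match to such short motifs is a description and not a binding site.

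The 12 largest fold changes among separated higher genes with a mean of at least 10 CPM included few textbook markers. Besides Angpt4 and Ackr2 they were Eps8l2 (3.46), Cdh19 (3.39), Gulo (3.32), Fam181b (3.28), Btbd17 (3.25), Fgfrl1 (3.24), Gprc5c (3.24), Vstm4 (3.20), Hps1 (3.17) and Fam234a (3.06). Cdh19, a cadherin of glial precursors, was at 5.53 to 69.7 CPM in IP and 0 to 5.26 CPM in input. Gulo encodes the last enzyme of vitamin C synthesis and was at 29.6 to 266 CPM in IP and 2.42 to 21 CPM in input. Fgfrl1, a receptor-like protein that binds fibroblast growth factors, was at 6.32 to 50.3 CPM in IP and 1.05 to 3.75 CPM in input, and it was 1 of 3 among these 12 that the weighted limma fit also called (adjusted p = 0.0324), with Fam181b and Hps1. In all 12 genes IP 2, 3 and 4 were the 3 highest libraries, and IP 1, 5 and 6 lay nearest to the inputs.

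**Figure D3:**
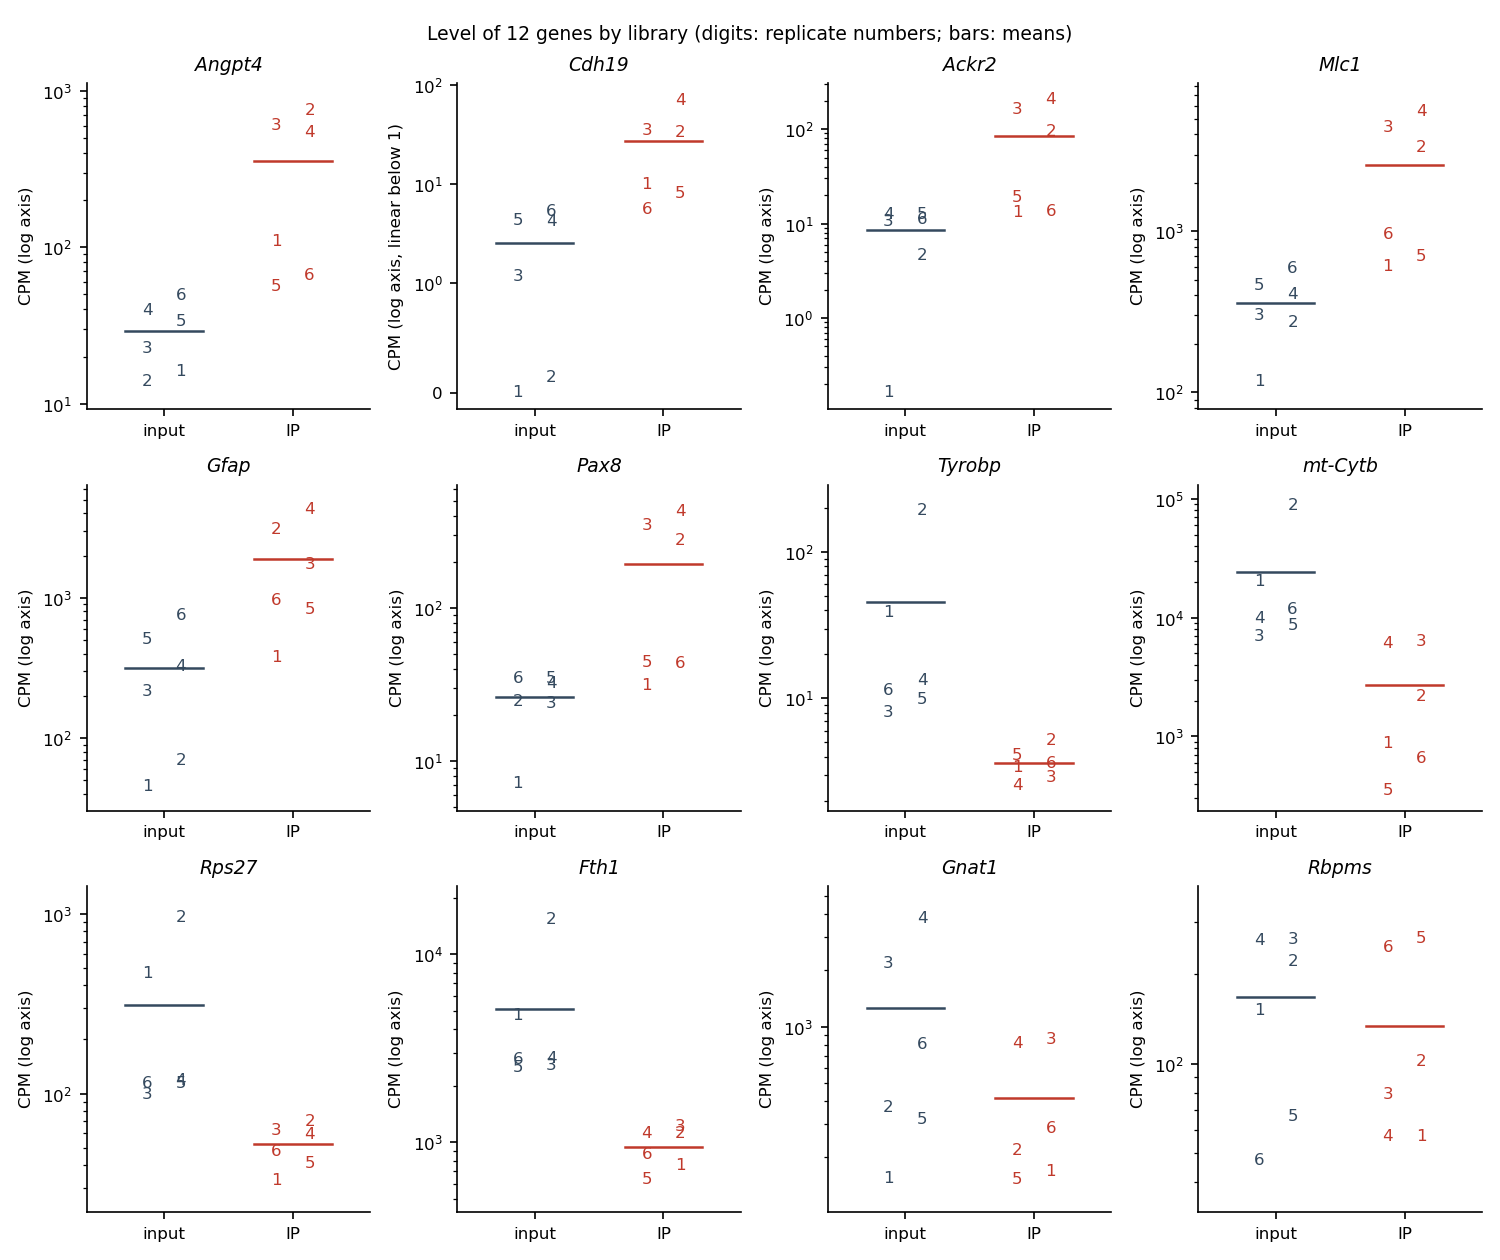
CPM of 12 genes in each input (dark) and IP (red) library, with replicate numbers as symbols and group means as bars, on log axes (linear below 1 CPM for Cdh19). The 6 higher genes have IP 2, 3 and 4 well above IP 1, 5 and 6. In Tyrobp, Rps27 and Fth1 the 6 IP libraries lie close together below inputs 3 to 6, and in Rbpms IP 5 and 6 lie with inputs 1 to 4.

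Several lists of glial functions also averaged higher. Of 22 tested basement membrane and matrix genes, 18 had positive fold changes (median 1.56), 3 did not overlap (2.17% of all genes) and DESeq2 called 9 higher (6.38%) and 0 lower. Agrn, which encodes the basement membrane proteoglycan agrin, was at 34.8 to 157 CPM in IP and 10.8 to 27.4 CPM in input. Col4a5, a collagen chain of basement membranes, was higher in all 6 IP libraries as well, at 1.25 to 10.7 against 0 to 1.15 CPM. Potassium, water and pH genes had a median of 0.81 over 18, with 2 separated upwards (2.17% of all genes). Their sums of 2988, 2556, 1846, 2625, 2528 and 3318 CPM in IP 1 to 6 did not follow the order of the astrocyte lists, and inputs were at 1685 to 2991 CPM. Among them was Kcnk1, a potassium channel, at 87.9 to 132 CPM in IP and 48.2 to 87.4 CPM in input (0.87, SE 0.22). Glutamate and GABA handling genes had a median of 0.60 over 16, and Slc6a11 was the 1 member that separated. Of 18 angiogenic and hypoxia genes 2 separated upwards (2.17% of all genes), Angpt4 and Vegfa, the vascular growth factor that astrocytes release under low oxygen. Vegfa was at 56.3 to 283 CPM in IP and 22.0 to 54.8 CPM in input, so IP 6 was barely above input 5.

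All 20 interferon and MHC class I genes had positive fold changes with a median of 1.26. Of these 0 separated from all 6 inputs, and 6 lay above inputs 3 to 6 in every IP library (5.21% of all genes). DESeq2 called 9 higher (6.38%) and 0 lower. The antigen-presenting H2-K1 was at 49.1 to 218 CPM in IP and 15.3 to 84.4 CPM in input, with input 2 alone inside the IP range. Usp18, which removes the ubiquitin-like ISG15 tag, had the largest fold change of the list, 2.91, and was chosen after its values were seen. The summed level of the list was 1764 CPM in input 2 and 340 to 714 CPM in the other inputs, against 696 to 2492 CPM in IP. Reactive astrocyte genes had a median of 1.5 over 16 and 0 separated members. Eye-field and glial transcription factors had a median of 1.44 over 25, and Sox9 was the 1 that separated.

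Cholesterol synthesis genes differed from these lists in that the IP libraries were even. Astrocytes make much of the cholesterol of nervous tissue. The summed level was 3004, 3611, 3084, 3847, 3213 and 3095 CPM in IP 1 to 6 and 1751, 2255, 2199, 2337, 2881 and 2793 CPM in inputs 1 to 6, with every IP library above every input. Of 22 genes 20 had positive fold changes, with a median of 0.55. Dhcr7, the enzyme of the last step to cholesterol, was at 50.1 to 110 CPM in IP and 2.92 to 42.4 CPM in input (1.43, SE 0.46, edgeR adjusted p = 0.095). Cyp51 and Mvd, a demethylase and a decarboxylase of the same pathway, also separated, by narrow gaps and with log2 fold changes of 0.74 and 0.65. Cyp51 was at 153 to 233 CPM in IP and 60.8 to 150 CPM in input, and Mvd at 49.0 to 61.6 and 20.9 to 46.0 CPM. Their adjusted p-values were 0.122 and 0.119 in edgeR, and 0.0613 and 0.0655 in DESeq2. The 3 separated genes were 13.6% of the list, against 2.17% of all genes. DESeq2 called 2 of 22 members higher, near the 6.38% of all genes, and these were Dhcr7 and Sqle, the epoxidase of the pathway (chosen after its values were seen). The weighted limma fit called 6 of the 22 higher (3.12% of all genes) and 0 lower. Among 20 glycolysis genes (median 0.26, and -0.10 without inputs 1 and 2) Aldoc and Ldha separated, and Ldha, lactate dehydrogenase, was at 3111 to 5018 CPM in IP and 2087 to 2605 CPM in input.

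Müller glia genes also averaged higher, with less separation. Of 18 tested genes, 15 had positive fold changes with a median of 1.42, 0 separated from all 6 inputs and 5 lay above inputs 3 to 6 (5.21% of all genes). DESeq2 called 7 higher (6.38%) and 0 lower. The summed level was 8993, 29931, 31122, 33111, 8462 and 14079 CPM in IP 1 to 6. It was 20561 CPM in input 2 and 3729 to 8988 CPM in the other 5 inputs. IP 2, 3 and 4 were above every input, as in the astrocyte list, and IP 1, 5 and 6 lay below input 2. Rlbp1, which encodes the retinaldehyde-binding protein of Müller glia, was at 474 to 3074 CPM in IP and 217 to 861 CPM in input. Glul, glutamine synthetase, was at 1673 to 4625 CPM in IP, and at 4213 CPM in input 2 against 800 to 1410 CPM in the others (log2 fold change 0.99, SE 0.45). The part of Müller glia in the values of genes that both cell types express was not tested.

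**Figure D4:**
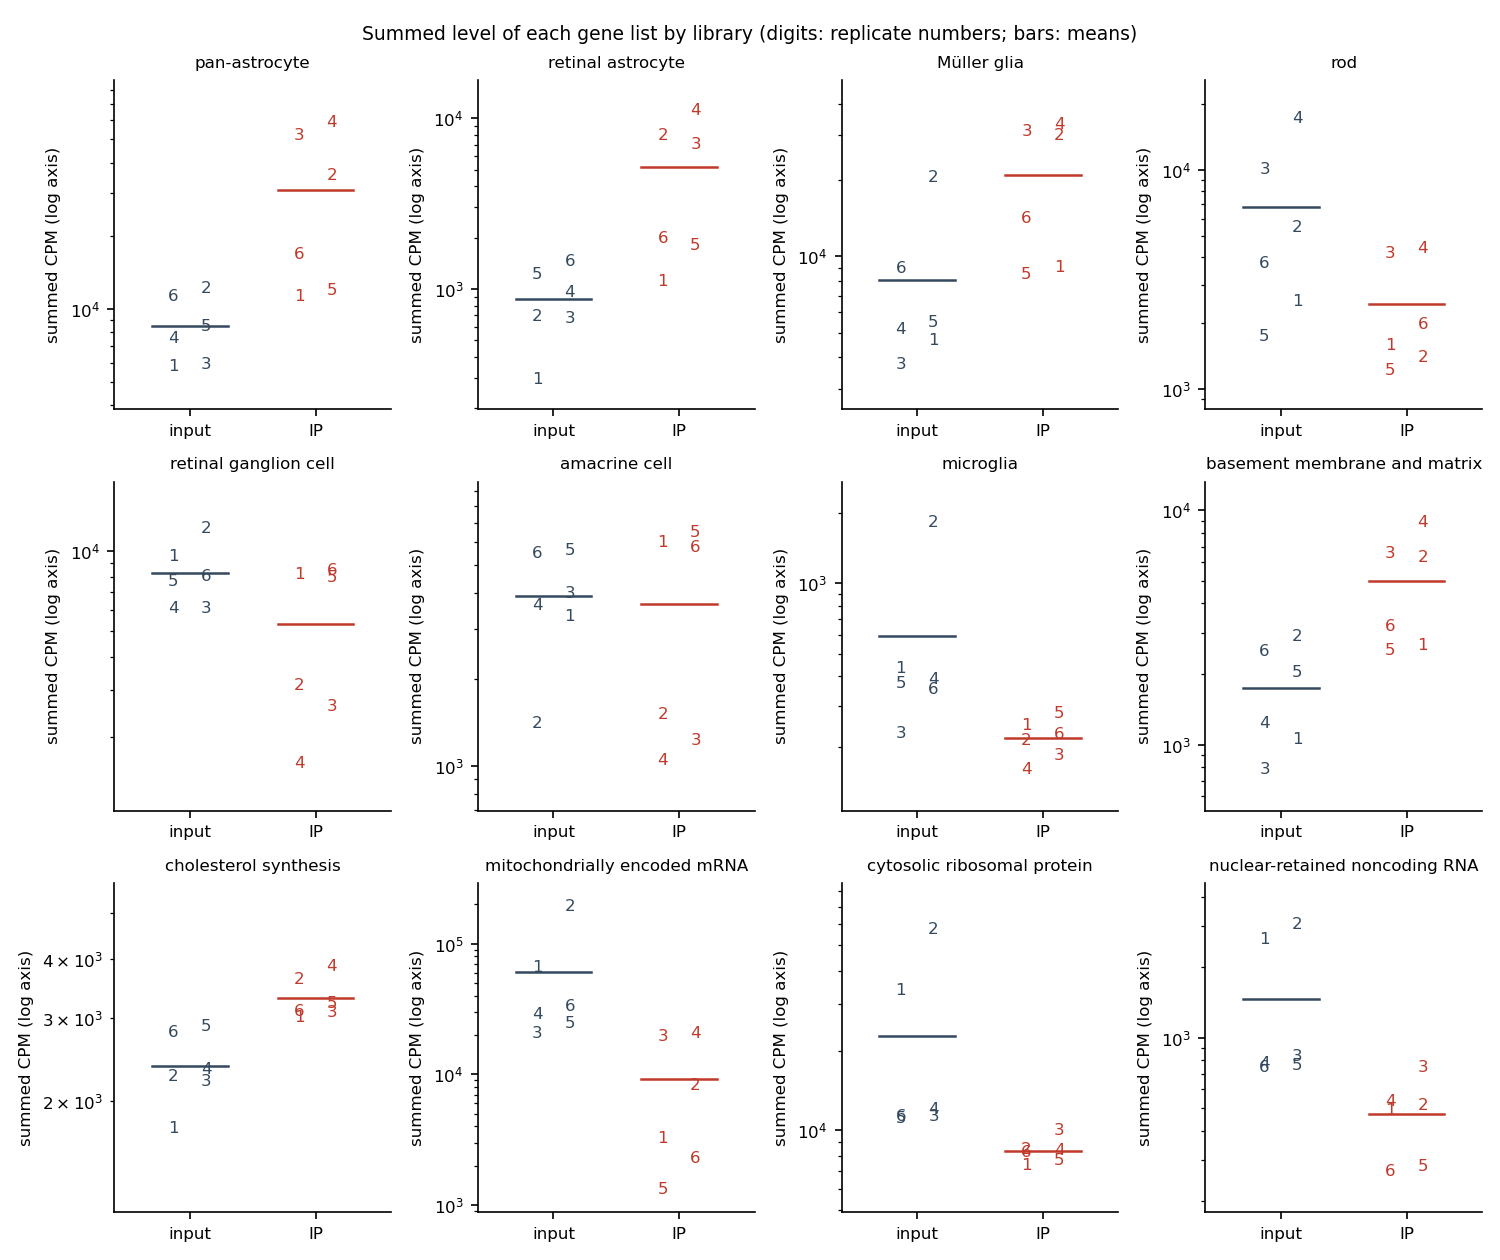
Summed CPM of 12 gene lists in each input (dark) and IP (red) library on log axes, with replicate numbers as symbols and group means as bars. Astrocyte, Müller glia and matrix lists are highest in IP 2, 3 and 4. The ganglion cell list is lowest in the same libraries, and the amacrine cell list in IP 3, IP 4 and input 2. Cholesterol synthesis (higher), ribosomal protein and noncoding lists (lower) do not overlap between the groups, the cholesterol and noncoding lists only by a narrow gap.

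Markers of retinal neurons remained in the IP libraries, most in IP 1, 5 and 6. Summed levels of 20 retinal ganglion cell genes were 8170, 3117, 2607, 1592, 7957 and 8395 CPM in IP 1 to 6 and 6048 to 12097 CPM in input. The 3 libraries with the highest astrocyte levels thus had the lowest ganglion cell levels, and IP 1, 5 and 6 lay within the inputs. Amacrine cell genes were at 5970, 1510, 1229, 1046, 6497 and 5734 CPM in IP 1 to 6 and at 1408 to 5619 CPM in input. IP 1, 5 and 6 thus lay above every input for this list. Horizontal cell and presynaptic genes were likewise lowest in IP 2, 3 and 4, with 139 to 225 CPM and 3500 to 5244 CPM. In IP 1, 5 and 6 they were at 645 to 727 CPM and 15264 to 16530 CPM, and in input at 458 to 671 CPM and 11523 to 17324 CPM. For horizontal cell genes IP 5 and 6 lay above every input. The medians of these 4 lists were -0.35, -0.16, -0.26 and -0.17, and -0.42, -0.29, -0.61 and -0.48 without inputs 1 and 2. Of the ganglion cell genes 18 of 20 were negative, of the amacrine cell genes 8 of 14, of the horizontal cell genes 6 of 7 and of the presynaptic genes 15 of 20. Of the 61 tested genes in the 4 lists 0 separated, where 2.17% of all genes did so upwards and 2.09% downwards. Nefl, a neurofilament gene of ganglion cells, was at 2470, 1094, 664, 438, 2023 and 2029 CPM in IP 1 to 6 and at 763 to 2166 CPM in input. Gad1, which makes GABA in amacrine cells, was at 155 to 876 CPM in IP and 164 to 803 CPM in input.

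Photoreceptor genes did not follow this order. All 20 rod genes had negative fold changes, with a median of -1.37, but 0 separated. Their summed level was 1578, 1398, 4145, 4404, 1214 and 1971 CPM in IP 1 to 6 and 2515, 5469, 10082, 17143, 1744 and 3760 CPM in inputs 1 to 6. The inputs themselves ranged widely, with inputs 3 and 4 high and input 5 low. Gnat1, the rod transducin subunit that relays the light signal, was at 152 to 857 CPM in IP and 154 to 3765 CPM in input (-1.60, SE 0.74, edgeR adjusted p = 0.218, DESeq2 adjusted p = 0.0884). DESeq2 called 9 rod genes lower (7.27% of all genes) and 0 higher. All 12 cone genes were negative too (median -1.28), 0 separated and DESeq2 called 5 lower (7.27% of all genes). Among 16 bipolar cell genes (median -0.59), Gng13 and Pcp2, both regulators of signalling in ON bipolar cells, separated. Gng13 was at 2.38 to 5.33 CPM in IP and 6.49 to 70.2 CPM in input, and Pcp2 at 7.68 to 14.3 and 18.2 to 196 CPM. Both have short coding regions, 201 and 342 bases.

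Microglia genes averaged lower, with a median of -1.78 over 14 and 13 negative values. Without inputs 1 and 2 the median was -0.90. Tyrobp (mm10 chr7:30413760-30417585), a signalling adaptor of microglia, had the lowest fold change of the named genes. It was at 3.36, 5.19, 2.88, 2.55, 4.05 and 3.6 CPM in IP 1 to 6 and at 38.4, 193, 7.98, 13.3, 9.79 and 11.4 CPM in inputs 1 to 6. The IP libraries were even, and inputs 1 and 2 were far above the other inputs (log2 fold change -3.65, SE 0.78, edgeR adjusted p = 0.057). Without inputs 1 and 2 the log2 fold change was -1.58, and edgeR then called it (adjusted p = 0.0418). Fcer1g and Trem2, a signalling chain and a lipid receptor of microglia, separated as well. Other members overlapped: Csf1r, the receptor for the growth factor of microglia, was at 9.69 to 54.8 CPM in IP and 11.8 to 46.8 CPM in input, and Tmem119, a membrane protein of resident microglia, at 2.01 to 9.89 and 5.49 to 12.5 CPM. These 2 were chosen after their values were seen. The coding regions of Tyrobp and Fcer1g are short (421 and 276 bases), and the part of that in their values was not tested.

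Most markers of vessels and other eye tissues were low in both groups, apart from Rgs5 and from some lists in input 2. The pericyte and smooth muscle list summed to 147 to 1021 CPM in IP and 59.8 to 352 CPM in input. Rgs5, a gene of pericytes, was at 116 to 931 CPM in IP and 40.6 to 204 CPM in input, with IP 2, 3 and 4 highest. Other pericyte and smooth muscle genes did not go with it, since Tagln, Myh11, Notch3 and Des stayed at or under 1.47 CPM in all 12 libraries, and Pdgfrb was at 1.14 to 8.67 CPM in IP and 0 to 13.3 CPM in input. Endothelial genes summed to 62.8 to 292 CPM in IP and 85.2 to 276 CPM in input, with 0 of 9 separated. Pigment epithelium genes summed to 39.5 to 79.3 CPM in IP, and to 330 CPM in input 2 against 36.6 to 76.7 CPM in the other inputs. Of 6 tested fibroblast genes Fbln1, a matrix glycoprotein, separated, at 16.6 to 143 CPM in IP and 0.0807 to 16.5 CPM in input. Col1a1, Col3a1 and Lum, which define fibroblasts, stayed at or under 2.31 CPM. In the oligodendrocyte list 6 of 7 tested genes had positive fold changes with a median of 1.11, DESeq2 called 1 higher (6.38% of all genes), 0 separated, and the sum was 52.5 to 167 CPM in IP and 20.1 to 98.2 CPM in input. Of its defining genes, Sox10 and Olig2 stayed at or under 0.303 CPM in all libraries. Red blood cell genes summed to 13 to 86.5 CPM in IP and to 1403 CPM in input 2 and 36.9 to 135 CPM in the other inputs, which overlapped the IP range.

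Among lower genes the largest group was that of cytosolic ribosomal proteins, the parts of the ribosome itself. All 79 had negative fold changes with a median of -1.59, and 46 had every IP library below every input, a share of 58.2% against 2.09% of all genes. DESeq2 called 64 lower (7.27% of all genes) and 0 higher, and the weighted limma fit called 37 lower (3.73%). Their summed level was 7341, 8426, 9946, 8385, 7680 and 8253 CPM in IP 1 to 6 and 33715, 57337, 11234, 11958, 11034 and 11271 CPM in inputs 1 to 6. Inputs 1 and 2 were thus several times higher than the other inputs, and these were in turn above every IP library. Without inputs 1 and 2 the median was -0.52, the same number of genes, 46, separated, and edgeR called 11 of the 79 lower. Rps27 was at 32.7, 69.8, 62.6, 59.5, 40.9 and 47.9 CPM in IP 1 to 6, and at 466 and 951 CPM in inputs 1 and 2 and 99.3 to 118 CPM in inputs 3 to 6. Ribosomal protein mRNAs share sequence with many processed pseudogenes, so single values may be split between copies.

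Ribosomal protein mRNAs begin with a run of pyrimidines, the TOP element, which lets growth signals switch their translation. Of the 5 separated ribosomal protein genes with the lowest fold changes and a run of at least 8 pyrimidines in the window, the 3 whose run covers the start are shown, a choice made after their windows were seen. In the other 2, Rpl31 and Rpl34, the longest run lies wholly before the start and is not in the mRNA by that start. A shorter run, of fewer than 8 pyrimidines, covers the start of Rpl31. The windows hold 15 bases on each side of the RefSeq start on GRCm38.p6, with the longest run of C and T in capitals. These are runs of pyrimidines, and whether they act as TOP elements was not tested.
Rps27: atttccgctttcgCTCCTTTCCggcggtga
Rpl35: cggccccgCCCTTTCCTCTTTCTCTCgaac
Rps18: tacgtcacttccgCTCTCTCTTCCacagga
They lie at chr3:90213634-90213663 (minus strand), chr2:39005117-39005146 (minus) and chr17:33955651-33955680 (minus). Their log2 fold changes were -2.57, -2.38 and -2.03. A run of at least 8 pyrimidines within 30 bases of the start was found in 33 of 58 matched ribosomal protein genes (56.9%), in 25.5% of other coding genes and in 22.9% of all starts in the table. A run counted in this way can lie before the start. Runs that cover the start, counted after the data were seen, were found in 18 of the 58 (31.0%), in 4.83% of other coding genes and in 3.86% of all starts. The ribosomal protein genes with a run within 30 bases had a median of -1.48 and those without one -1.5. Other coding genes had medians of 0.10 with a run and 0.08 without. The medians of genes with and without a run were thus alike in both classes. Of the ribosomal protein genes, 21 of 33 with a run and 11 of 25 without one separated downwards, a difference that was not tested.

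Translation factors, which act on the ribosome but are not parts of it, were lower as a sum. The sum was 5251 to 5673 CPM in IP and 6011 to 8290 CPM in input, with no overlap. Of 21 genes 14 had negative fold changes with a median of -0.42 (-0.19 without inputs 1 and 2). At an unadjusted edgeR p under 0.05 there were 7 lower and 1 higher, and DESeq2 called 3 lower (7.27% of all genes) and 0 higher. Eef1g, a subunit of elongation factor 1, separated downwards (-0.56) and Eif3a, the largest subunit of initiation factor 3, upwards (0.47).

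Mitochondrially encoded mRNAs, which are translated on ribosomes inside the mitochondrion, had the lowest median of the 37 lists. All 13 were negative with a median of -2.74, and 4 separated (2.09% of all genes). DESeq2 and the weighted limma fit each called all 13 lower (7.27% and 3.73% of all genes), while edgeR called 0. mt-Cytb, the cytochrome b gene, was at 876, 2177, 6236, 6022, 353 and 656 CPM in IP 1 to 6 and at 20322, 88046, 6879, 9785, 8509 and 11713 CPM in inputs 1 to 6. IP 3 and 4 came close to input 3, and IP 5 was the lowest library. Within the IP group the order was the reverse of that of the neuronal lists: IP 2, 3 and 4, with the highest astrocyte levels, had summed mitochondrial levels of 8228, 19563 and 20651 CPM, and IP 1, 5 and 6 had 3233, 1320 and 2283 CPM. In mt-Co1, a subunit of cytochrome oxidase, the groups overlapped through IP 3 and 4 (log2 fold change -2.27, and -1.38 without inputs 1 and 2). mt-Atp8 and mt-Nd4l, which also separated, overlap mt-Atp6 and mt-Nd4 in the genome, and their counts can be split among these genes.

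Subunits of oxidative phosphorylation encoded in the nucleus, made on cytosolic ribosomes, showed how far inputs 1 and 2 carried a group. Their median was -1.46 over 60 genes, 55 of them negative, and -0.25 without inputs 1 and 2. DESeq2 called 42 lower (7.27% of all genes), and the weighted limma fit called 0. The summed level was 48931 and 69469 CPM in inputs 1 and 2, 16929 to 17422 CPM in inputs 3 to 6 and 12015 to 17826 CPM in IP. Yet 11 genes separated downwards (2.09% of all genes), among them Atp5k, Uqcr10 and Cox6c, small subunits of ATP synthase, complex III and complex IV. Cox6c was at 187 to 247 CPM in IP, at 1559 and 2124 CPM in inputs 1 and 2 and at 298 to 348 CPM in inputs 3 to 6. Mitochondrial ribosomal proteins had a median of -0.84 over 28 and 0.07 without inputs 1 and 2, and 0 separated. Proteasome subunits had -0.54 over 22 and -0.04.

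Both ferritin subunits, which store iron, separated downwards. Fth1 (mm10 chr19:9980598-9985098) was at 756, 1107, 1217, 1120, 635 and 862 CPM in IP 1 to 6 and at 4745, 15385, 2550, 2775, 2498 and 2755 CPM in inputs 1 to 6. The gap between IP 3 and input 5 was wider than the spread among the 6 IP libraries or among inputs 3 to 6. Its log2 fold change was -2.43 (SE 0.48, edgeR adjusted p = 0.057), and without inputs 1 and 2 it was -1.49, which edgeR called (adjusted p = 0.0296). Ftl1 was at 203 to 448 CPM in IP and 571 to 4334 CPM in input. In the same list of metallothionein and antioxidant genes, catalase (Cat) separated upwards, at 79.5 to 208 against 30.5 to 71.0 CPM.

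Noncoding RNAs that are mostly kept in the nucleus or not translated had a median of -1.22 over 14, and -0.44 without inputs 1 and 2. Their summed level was 268 to 742 CPM in IP and 746 to 3050 CPM in input, so IP 3 lay barely under input 6. Gas5, the host of small nucleolar RNAs, separated alone, at 48.3 to 124 CPM in IP and 144 to 1456 CPM in input. Between IP 3 (91.0 CPM) and input 6 (171 CPM) Gas5 differed by more than the summed levels did. The separation of the sum thus rested on Gas5. Malat1, an abundant nuclear RNA, did not separate: IP 3 held 515 CPM and IP 4 313 CPM, against 266 to 347 CPM in inputs 3 to 6 and 1349 and 1591 CPM in inputs 2 and 1. Over all tested lincRNAs the median was -0.76, with 21 of 342 separated downwards (6.14%) and 0 upwards. Antisense genes had a median of -0.73 over 269 and pseudogenes -0.65 over 812. Without inputs 1 and 2 these 3 medians were -0.43, -0.30 and -0.12. The labels do not say that strand was kept, so reads of antisense genes cannot be told from those of their partners.

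Downward separation was more frequent among protein-coding genes with short coding regions, a feature that played no part in choosing the libraries. Of the 223 lower coding genes, 51 had up to 300 coding bases and 106 had from 300 to 600, and the bins up to 1200, 2400, 4800 and more bases held 55, 9, 1 and 1. Of 327 tested protein-coding genes with up to 300 coding bases, 51 separated downwards (15.6%) and 0 upwards, with a median log2 fold change of -1.14. From 300 to 600 bases the values were 6.90% downwards and -0.58 over 1537 genes. From 1200 to 2400 bases 0.185% separated downwards and 3.82% upwards over 4871 genes, with a median of 0.21, and above 4800 bases the median was 0.31 over 609. Leaving out ribosomal protein and mitochondrially encoded genes, 40 of 315 genes of up to 300 bases separated downwards (12.7%) and the median was -1.09. Without inputs 1 and 2 the medians were -0.25 for the shortest and 0.26 for the longest genes, and 63 of the 327 shortest genes lay below inputs 3 to 6 in every IP library (19.3%, against 4.64% of all genes). Genes of up to 300 coding bases took 7.41% and 7.31% of protein-coding counts in inputs 1 and 2, 2.64% to 3.05% in inputs 3 to 6, and 1.96% to 3.23% in IP. Genes are not independent replicates, so these figures describe the libraries and carry no test.

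**Figure D5:**
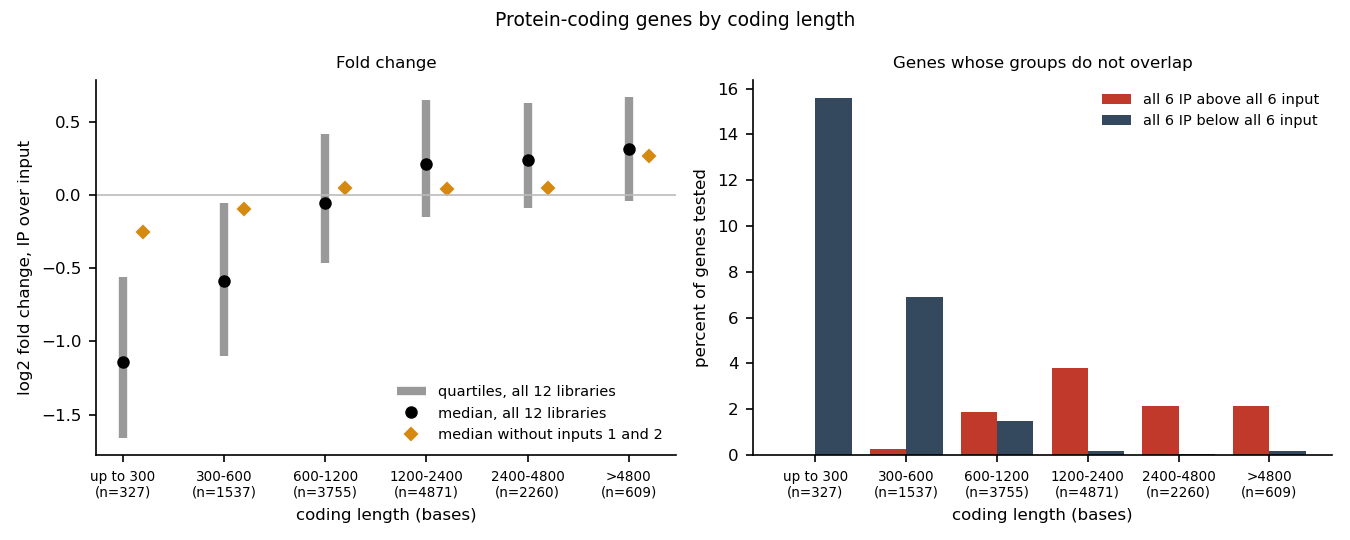
Protein-coding genes by coding length in bases: median and quartiles of the log2 fold change of IP over input with all 12 libraries and the median without inputs 1 and 2 (left), and percent of genes whose groups do not overlap (right). The share below input is 15.6% up to 300 bases and 0.164% above 4800 bases, and the median over length is flatter without inputs 1 and 2.

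In 2 lists for other cell states at most 1 gene separated. Of 14 immediate-early genes 0 separated (2.17% of all genes upwards and 2.09% downwards), with a median of 0.49. Fos, which neurons and glia induce within minutes of handling, was at 28.9 to 142 CPM in IP and 21.5 to 133 CPM in input, with replicate 5 the highest library of both groups. Of 22 chromatin regulators Arid1a, a subunit of a remodelling complex with a long coding region (6861 bases), was the 1 that separated, at 31.5 to 58.1 CPM in IP and 15.2 to 27.1 CPM in input. Of the 22, 18 had positive fold changes, with a median of 0.34. The weighted limma fit called 7 higher (3.12% of all genes) and 0 lower, and DESeq2 called 1 higher (6.38%) and 0 lower.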

How the data were processed

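The deposited table holds estimated counts per gene, which the authors obtained with Salmon 1.6.0 on mm10, per the submitters' processing notes. The labels do not state the annotation or library strandedness. Symbols, types and coding lengths came from GENCODE M21, for 54409 of 54532 genes. Counts were rounded to whole numbers.

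Groups were taken from the labels. IP was tested against input over 12 libraries without covariates in R 4.3.3 with edgeR 4.0.16 (quasi-likelihood F test, TMM, genes filtered with filterByExpr at min.count 10 and min.total.count 15, Benjamini-Hochberg adjusted p under 0.05). Alternatives were DESeq2 1.42.0, limma 3.58.1 with and without library weights, other size factors, no filter, all 26 libraries with a batch term, a replicate block and the omission of libraries. Fits were tested on simulated data.

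The members and the 37 gene lists (718 entries, 17 lists for cell types) were chosen with earlier results of these data known, so no set test was run. Named genes were the 12 largest fold changes per direction among separated coding genes with at least 10 CPM in the higher group, up to 3 separated members per list (2 the other way) and 35 listed genes. List members outside this rule are also given by value, and some genes that met it are not reported here. Library measures were tested over all 924 rearrangements. Figures were drawn with matplotlib 3.10.9.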

Additional observations from a re-analysis of the deposited data

Results flagged for a closer look

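Within each group of 6 libraries, the highest or lowest value of 34 of 236 checked sets lay farther from the rest than Dixon's 95% limit. Chance gives about 1 in 20 for normally distributed values in sets chosen beforehand. Many sets here share genes, and part of the named genes were chosen by their fold changes in these data. That rate is therefore no benchmark for the 34. In 30 of the 34 the outlying library was input replicate 2, as its highest value. Among library measures it held 38.27% of its counts in its 100 highest genes.

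Among summed gene lists, input 2 stood out with 20560 CPM for Müller glia, 498.4 CPM for bipolar cells, 1814 CPM for microglia, 330.2 CPM for pigment epithelium, 606.5 CPM for lens crystallins and 1403 CPM for red blood cells. It also stood out with 193800 CPM for mitochondrially encoded mRNAs, 1764 CPM for interferon and MHC class I, 2073 CPM for eye-field and glial transcription factors, 2117 CPM for angiogenic and hypoxia genes and 32240 CPM for metallothionein and antioxidant genes.

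Among single genes input 2 held 193 CPM of Tyrobp, 111.4 of Fcer1g, 68.55 of Cd68, 42.27 of Trem2 and 38.65 of C1qa, all genes of microglia or macrophages. Its mitochondrial levels were 64.93 CPM of mt-Atp8, 88050 of mt-Cytb, 351.9 of mt-Co2, 47.97 of mt-Nd4l and 30730 of mt-Co1. The same library held 2039 CPM of Rps19, 1456 of Gas5, 15380 of Fth1, 4334 of Ftl1, 805.7 of S100b, 4213 of Glul, 203.7 of Rgs5 and 84.4 of H2-K1.

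The 4 values from other libraries were 308.1 CPM of the cone pigment gene Opn1sw in input 4, 145.7 CPM of Eif3a in IP 2, 232.5 CPM of Cyp51 in IP 4 and 142.5 CPM of Fos in IP 5.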

How the results depend on the processing

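The number of genes called higher and lower was 0 and 0 with RLE size factors, total counts, TMM without mitochondrial and ribosomal protein genes, limma-voom and the replicate block. It was 152 and 41 with no low-count filter, 969 and 1103 with DESeq2, 474 and 566 with library weights, 1419 and 1452 with all 26 libraries and 1 and 48 without both input replicates 1 and 2. Without 1 library at a time it ranged from 0 to 341 higher and from 0 to 40 lower. The cause of these differences was not tested. Separated genes numbered 206 higher with RLE size factors, 791 higher and 705 lower without both inputs, and 356 to 581 higher and 342 to 465 lower without 1 library at a time, where fewer libraries have to lie apart.

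Same-numbered IP and input libraries had correlated deviations of -0.144 to 0.273, 4 of 6 over 0.1, and 4 of 6 correlated best with their own number. That is a hint of pairing in the data, but the highest value of any IP and input library was 0.291, for IP 3 with input 2. Pairs were taken only where the labels state them or every number is over 0.1. Neither held, so the fit without the block was kept and the permutation tests do not use the numbers. The replicate block gave 0 calls in both directions and turned the sign of Gad1 (-0.046).

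The mitochondrial, ribosomal protein and long noncoding shares were lower in IP under all 13 omissions. The difference in genes with at least 1 CPM (IP minus input) was -283.7 without both inputs and -101.8 to 145.6 without 1 library at a time. For genes with at least 1 count it was -529 without both inputs. For the share of the 100 highest genes it was 2.15 percentage points without both inputs and -2.01 to 1.21 without 1 library.

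Some signs turned. Aqp4 was at -0.000587 with RLE size factors, -0.000934 with DESeq2, -0.00579 without both inputs and -0.55 to 0.64 without 1 library at a time. Gad1 was at -0.053 with RLE size factors and with DESeq2, -0.057 with limma-voom, -0.032 with all 26 libraries, -0.34 without both inputs and -0.20 to 0.22 without 1 library. Fos was at 0.012 with total counts, 0.0018 with no filter, 0.0056 with limma-voom and -0.41 to 0.26 without 1 library. Library weights gave 0.51 for Rbpms, 0.046 for Nefl and 0.61 for Cldn5, and limma-voom gave 0.34 for Cldn5. Without 1 library Nefl ranged from -0.36 to 0.045 and Mbp from -0.17 to 0.52. List medians that turned sign with library weights were those of endothelial (-1.18 to 0.12), pigment epithelium (-0.52 to 0.11), ganglion cell, amacrine, presynaptic, proteasome, antioxidant and pericyte genes. Glycolysis, mitochondrial ribosomal and antioxidant medians turned without both inputs, lens crystallin without IP 4 (to just under 0), amacrine without IP 2 or IP 4, and pericyte with the block and 5 omissions. The coding-length medians without both inputs were computed after seeing the data.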

Other observations

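A few genes split the 12 libraries in an order that matched neither the groups nor the astrocyte levels. In 13 of 13664 genes with over 5 CPM in at least 1 library, IP 5 and 6 and inputs 1 to 4 all lay above IP 1 to 4 and inputs 5 and 6 by more than 0.5 on the log2 scale. Each IP library thus lay on the opposite side from the input of the same number. The order was noticed in Rbpms, an RNA-binding protein gene that marks ganglion cells, and the others were then looked for, so it carries no test. Rbpms was at 56.8, 102, 78.7, 56.7, 264 and 246 CPM in IP 1 to 6 and at 151, 220, 261, 260, 66.4 and 47.4 CPM in inputs 1 to 6. Igfbp7, which encodes a secreted vascular protein, had the widest gap, with 10.3 to 44.4 CPM in the high libraries and 1.73 to 3.84 CPM in the low ones. Tmem163, a zinc transporter gene, was at 49.1 to 96.9 and 11.3 to 21 CPM, and Hdgfl3 at 87.3 to 183 and 23.5 to 43.1 CPM. The genes named so far lie on different chromosomes (8, 5, 1 and 7), but most of the 13 share a chromosome with another. Nsmce4a and Sh3gl3 lie on chromosome 7 with Hdgfl3, Siah1a on 8 with Rbpms, and Suds3 on 5 with Igfbp7. Pnrc1 and Rnf220 both lie on chromosome 4, and Bod1, Pawr and Dusp5 on 11, 10 and 19. Whether any of them are linked was not tested. What the 6 high libraries share was not tested.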
